A study of Mus musculus with 2 samples.

Results

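The genes described here encode cytoplasmic dynein, its activator dynactin and the adaptors that tie the motor to cargo. They are 10 of the 43346 annotated genes in the tables, taken by name: the dynein 1 heavy chain Dync1h1, the intermediate chains Dync1i1 and Dync1i2, the light intermediate chains Dync1li1 and Dync1li2, the dynactin subunits Dctn1 and Dctn2, the Bicaudal D adaptors Bicd1 and Bicd2, and the Lis1 partner Ndel1. They were measured by total RNA sequencing in the neural tube, from which the central nervous system forms, of healthy B6NCrl mouse embryos at 15.5 days. The design holds 1 group of 2 libraries, each from its own pool of embryos of both sexes, with 78 embryos in replicate 1 and 62 in replicate 2. No condition, genotype or time was varied, so no comparison between groups could be made. With 2 libraries the smallest two-sided p that an exact sign-flip test allows is 0.5, and no p-value is given.

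Cytoplasmic dynein 1 is the motor that carries cargo towards the minus ends of microtubules. In neurons it moves organelles and signals from the axon back to the cell body, and in dividing neural progenitors it moves nuclei and positions spindles. The heavy chain hydrolyses ATP and binds the microtubule. The intermediate and light chains are part of the tail, and the light intermediate chains contact the adaptors. Dynactin and a coiled-coil adaptor such as a Bicaudal D protein join the motor to cargo and make it processive. Lis1, encoded by Pafah1b1, and its partners Ndel1 and Nde1 help to open and assemble the motor. Mutations of DYNC1H1 and BICD2 in humans cause motor neuron disease and brain malformations, and mutations of DCTN1 cause motor neuron disease and Perry syndrome.

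The libraries held 34678043 expected counts over genes in replicate 1 and 41355355 in replicate 2. An expected count is an estimated read number in which ambiguous reads are shared out between transcripts. TPM divides it by the effective length of the transcript and rescales it so that libraries share 1 total. Neuronal markers had a summed level of 4378 TPM in replicate 1 and 5208 TPM in replicate 2. Of them, 8 of 8 were at or above 1 TPM in both libraries, against 35.8% of the 43346 annotated genes. Every listed marker of progenitors, cell cycle, skeletal muscle, red cells, mesenchyme and dorsal root ganglion also was, so that count is not particular to neurons. Replicate 1 stood apart in markers of other tissue. Thymocyte markers summed to 288 TPM in replicate 1 against 9.48 TPM in replicate 2. Of the sum in replicate 2, Lck alone gave 9.17 TPM, and Cd3g was at 0. Markers of thymic and other epithelium summed to 757 TPM against 6.63 TPM, with Foxn1 at 0 in replicate 2. Cell cycle markers, of which 6 of 6 were higher in replicate 1, summed to 378 TPM against 177 TPM. Other cell types were present in both. Progenitor markers summed to 1996 TPM in replicate 1 and 2378 TPM in replicate 2, of which Fabp7 alone gave 1416.7 and 1832.5 TPM. Red cell markers summed to 14864 and 12931 TPM, and mesenchyme markers to 1119 and 869 TPM. Dorsal root ganglion markers summed to 214 and 243 TPM, and skeletal muscle markers to 181 and 303 TPM. In such tissue, fewer cells of a type and less RNA per cell cannot be told apart. Levels below are therefore given per library, or as a mean with the SD of the 2 libraries, and the part of this other RNA in any difference between the libraries was not tested.

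Splicing of short coding exons distinguished the transcripts of 3 of these genes, and the sequences that define those forms are shown first. They were read from the GENCODE M21 transcripts on GRCm38 (mm10), plus strand, 5′ to 3′. The alternative bases are in capitals, and the adjoining 15 bases of the same transcript on each side are in lower case. The first pair are the 60-base exons of the intermediate chain genes, at chr6:5784439-5784498 in Dync1i1 and chr2:71233649-71233708 in Dync1i2. They share 46 of 60 bases (76.7%) with no gap, begin at the same codon position, and each add 20 codons.
Dync1i1 60-base exon: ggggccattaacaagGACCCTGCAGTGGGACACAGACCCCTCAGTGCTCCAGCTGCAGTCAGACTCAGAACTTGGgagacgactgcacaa
Dync1i2 60-base exon: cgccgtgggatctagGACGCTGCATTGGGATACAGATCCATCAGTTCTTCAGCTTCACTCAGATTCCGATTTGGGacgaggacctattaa
The next pair are the shorter choices upstream of them. The 18-base exon of Dync1i2 lies at chr2:71227827-71227844, and the 33-base stretch of Dync1i1, at chr6:5769701-5769733, is added or lost through the choice of a 3′ splice site.
Dync1i2 18-base exon: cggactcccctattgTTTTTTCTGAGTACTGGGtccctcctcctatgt
Dync1i1 33-base stretch: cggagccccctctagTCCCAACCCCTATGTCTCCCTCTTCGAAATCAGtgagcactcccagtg
In Dctn1, 3 consecutive small exons of 21, 18 and 21 bases, within chr6:83183936-83187784, form a run of 60 bases in the transcript. In human DCTN1 the matching exons encode a basic stretch beside the microtubule-binding CAP-Gly domain. A 15-base exon lies further downstream at chr6:83197319-83197333.
Dctn1 small exons joined: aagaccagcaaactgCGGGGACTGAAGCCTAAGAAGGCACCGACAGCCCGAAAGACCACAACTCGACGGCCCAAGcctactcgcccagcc
Dctn1 15-base exon: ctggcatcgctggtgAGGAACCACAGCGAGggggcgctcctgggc

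All 10 genes were detected, that is at or above 1 TPM in both libraries, against 35.8% of the 43346 annotated genes. Their median level was 75.0 TPM in replicate 1 and 78.3 TPM in replicate 2, and that of the 15505 detected genes was 17.0 and 16.0 TPM. Each gene stood between the 58.8th and the 95.9th percentile of detected genes. Dctn2 was highest, at 234 ± 14.6 TPM (SD, n = 2), and Bicd2 lowest, at 23.6 ± 1.17 TPM. Between those ends the order of mean TPM was Dync1i2, Dctn1, Dync1li1, Ndel1, Dync1h1, Dync1li2, Dync1i1 and Bicd1. The library ranges of neighbours overlapped for Dync1i2 and Dctn1, for Dync1h1 and Dync1li2, and for Dync1i1 and Bicd1, so those pairs have no settled order. The place of Dync1h1 in this order depends on which of its transcripts are counted.

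**Figure D1:**
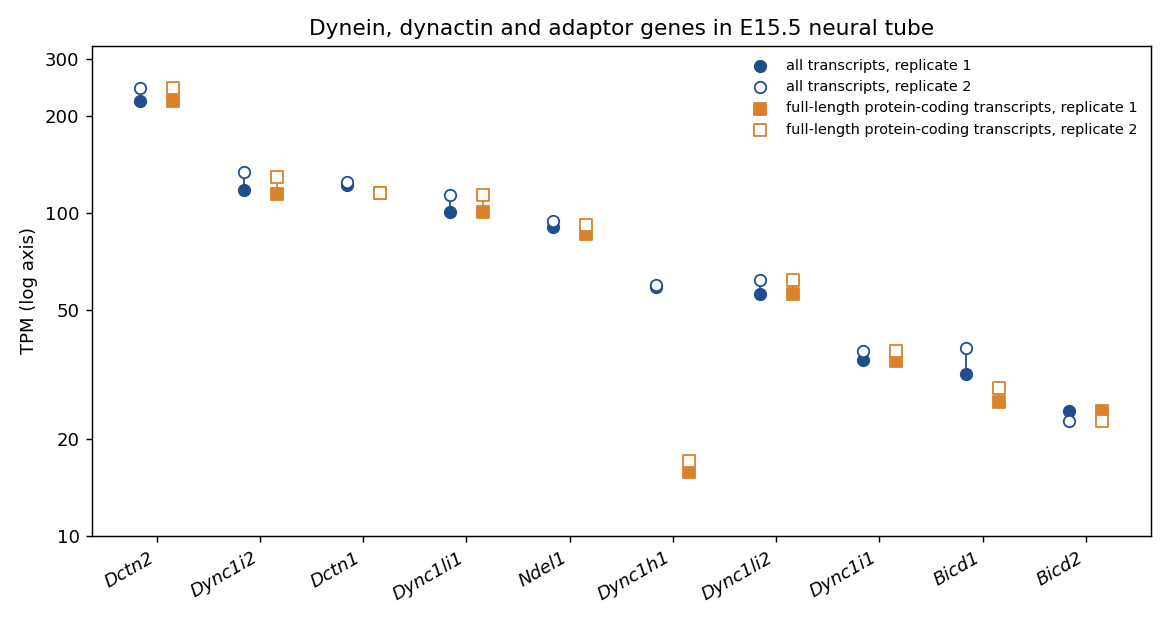
TPM (log axis) of the 10 genes in replicate 1 (filled) and replicate 2 (open), summed over all transcripts (circles) or over full-length protein-coding transcripts only (squares, where those of Dctn1 lie on each other at 116 TPM). Dync1h1 is the gene whose pair of scales is farthest apart, at 59.5 TPM over all transcripts and 16.4 TPM over the full-length coding one.

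The heavy chain gene Dync1h1 (chr12:110601452-110666945, plus strand) had 59.14 TPM in replicate 1 and 59.93 TPM in replicate 2. Its only full-length coding transcript, Dync1h1-201, has 14342 bases and 4644 codons, and was listed at 15.77 TPM in replicate 1 and 17.06 TPM in replicate 2. That transcript held 93.1% and 93.7% of the expected counts of the gene but 26.7% and 28.5% of its TPM. Most of the remaining TPM was in Dync1h1-204, an annotated retained-intron transcript of 427 bases near the 3′ end of the gene, at 30.64 TPM in replicate 1 and 29.78 TPM in replicate 2. Its 223 and 259 expected counts gave 51.8% and 49.7% of the TPM of the gene, because TPM divides by length. Another retained-intron transcript, Dync1h1-207, took 14.8% and 10.7%, and the other 5 took 6.72% and 11.2% together. Counts per base of effective length, which for Dync1h1-204 is shorter than its 427 bases, were 0.680 and 0.789 on Dync1h1-204. They were 0.350 and 0.452 on Dync1h1-201.

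Dync1h1-204 consists of 300 bases that lie in exons of the full-length transcript and 127 bases of intron, at chr12:110664748-110664874, which are shown in capitals after the last 15 exon bases.
Dync1h1-204 intron stretch: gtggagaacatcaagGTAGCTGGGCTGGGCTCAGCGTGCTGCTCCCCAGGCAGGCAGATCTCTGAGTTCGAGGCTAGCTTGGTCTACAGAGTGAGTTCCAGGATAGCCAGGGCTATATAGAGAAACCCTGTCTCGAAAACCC
The later part of this stretch has the letters of a B1 element, a short interspersed repeat present at very many places in the mouse genome. Of the 103 words of 25 bases in the stretch, 50 (48.5%) occur in annotated transcripts of other genes on either strand, and 1 word occurs in as many as 70 other genes. None of the 276 words of the exon part does, and in the full-length transcript 2.70% of words do, in 2 other genes. In Dync1h1-207, 36 of 597 words (6.03%) do, and 1 word occurs in as many as 64 other genes. How the counts of Dync1h1-204 divide between its exon and intron bases is not given in the tables, and the part of repeat reads in its level was not tested.

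**Figure D2:**
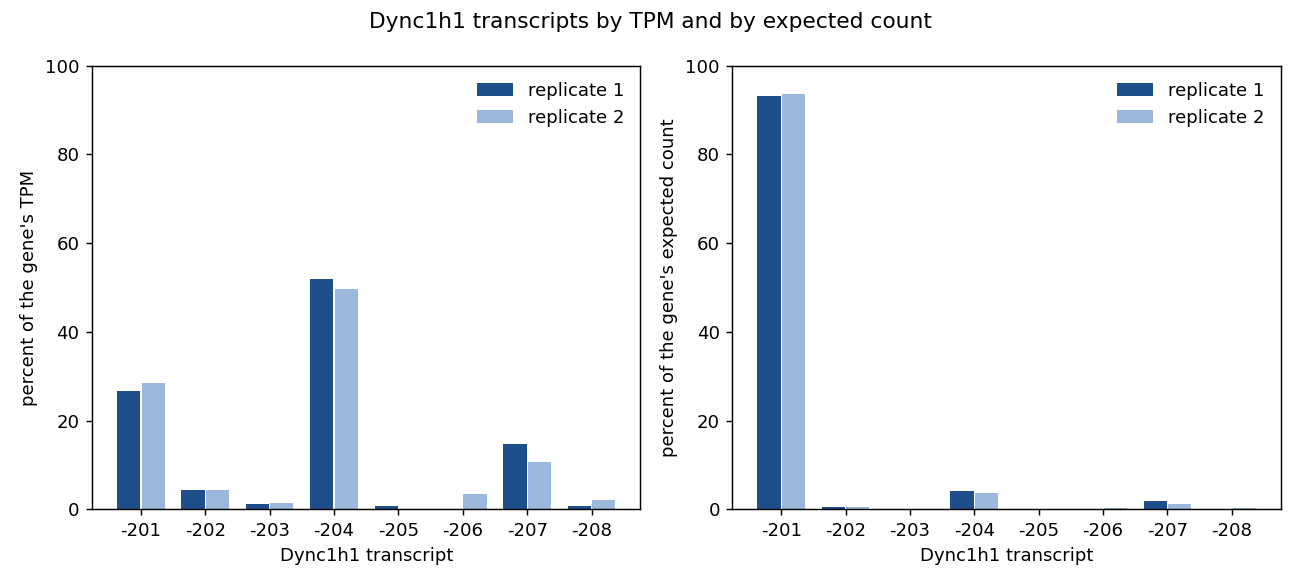
Percent of the TPM (left) and of the expected count (right) of Dync1h1 in each of its 8 annotated transcripts, with replicate 1 in dark and replicate 2 in light bars. Dync1h1-201, the full-length coding transcript, holds 93.1% and 93.7% of counts, while the 427-base Dync1h1-204 holds 51.8% and 49.7% of TPM.

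A share of full-length coding TPM as low as that of Dync1h1 was uncommon. Among the 9808 protein-coding genes with more than 1 transcript that were detected and had a full-length coding transcript above 0 TPM in both libraries, the median share was 87.1% in replicate 1 and 85.8% in replicate 2. Only 5.79% and 6.69% of those genes were at or below Dync1h1. Among the other 9 genes here the share ran from 75.1% for Bicd1 in replicate 2 to 100% for the 4 genes with no other kind of transcript. Counted on full-length coding transcripts, Dync1h1 moved from the 6th to the 10th place, and only the neighbours Dync1i2 and Dctn1 still overlapped. Ratios that involve Dync1h1 are given on both scales for this reason.

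The intermediate chains carry the dynactin-binding end of the motor tail. Dync1i2 (chr2:71211706-71263303, plus strand) had 118.41 TPM in replicate 1 and 133.84 TPM in replicate 2. Dync1i1 (chr6:5725639-6028039, plus strand), the intermediate chain known in rodents as the neuronal one, had 35.07 and 37.40 TPM. Dync1i2 was 3.38 times as high as Dync1i1 in replicate 1 and 3.58 times in replicate 2, a mean of 3.48 ± 0.143 (SD, n = 2). The pair did not overlap in either library, and the ratio was 3.38 ± 0.115 on full-length coding transcripts.

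Dync1i1 RNA was mostly of the form that contains the 60-base exon. All 4 full-length transcripts of Dync1i1 begin at the same annotated first exon. Dync1i1-204, of 628 codons with the 33-base stretch and the 60-base exon shown above, held 68.1% of the TPM of the gene in replicate 1 and 72.8% in replicate 2. Dync1i1-203, which lacks the 33-base stretch, held 11.5% and 13.8%. Dync1i1-201, of 608 codons and without the 60-base exon, held 18.3% in replicate 1 and 7.17% in replicate 2, and the other 2 transcripts held 2.07% and 6.25% together. Taken as inclusion, the percent of full-length coding TPM that contains a stretch, the 60-base exon reached 81.5% in replicate 1 and 92.8% in replicate 2. The 33-base stretch reached 88.4% and 86.2%, and a further 51 bases upstream of it, at chr6:5769650-5769700, only 1.15% and 6.26%. The deposited intervals of Dync1i1-201, 3.58 to 9.35 TPM in replicate 1 and 1.24 to 4.397 TPM in replicate 2, overlapped.

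Dync1i2 RNA was spread over 3 main forms. Dync1i2-207, of 632 codons, contains the 60-base exon but not the 18-base exon and held 53.2% of TPM in replicate 1 and 54.7% in replicate 2. Dync1i2-208, of 638 codons and with both exons, held 19.3% and 23.5%. Dync1i2-201, of 612 codons and with neither, held 21.4% and 15.2%. In rat these 3 patterns are known as IC-2B, IC-2A and IC-2C, of which IC-2C is the form found in all tissues and the other two are found in brain. The other 9 transcripts held 6.19% and 6.61% together, and 4 of them were listed at 0 TPM in both libraries. The 60-base exon was included in 74.9% of full-length coding TPM in replicate 1 and 80.9% in replicate 2, and the 18-base exon in 19.9% and 24.3%. The deposited intervals of Dync1i2-201, 20.87 to 28.63 TPM in replicate 1 and 17.05 to 24.72 TPM in replicate 2, overlapped. The first exons of Dync1i2 overlap on the genome. Transcripts whose first exon ends at 71211845 held 58.02% and 59.98% of full-length coding TPM. Those whose first exon ends at 71212074 held 41.98% and 40.02%.

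The intermediate chain genes are built alike: Dync1i1-204 and Dync1i2-207 each have 16 coding exons, of which 13 have the same length, counted in order. The alternative 60-base exon is among these 13. Inclusion of the 60-base exon was higher in replicate 2 than in replicate 1 for both genes.

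**Figure D3:**
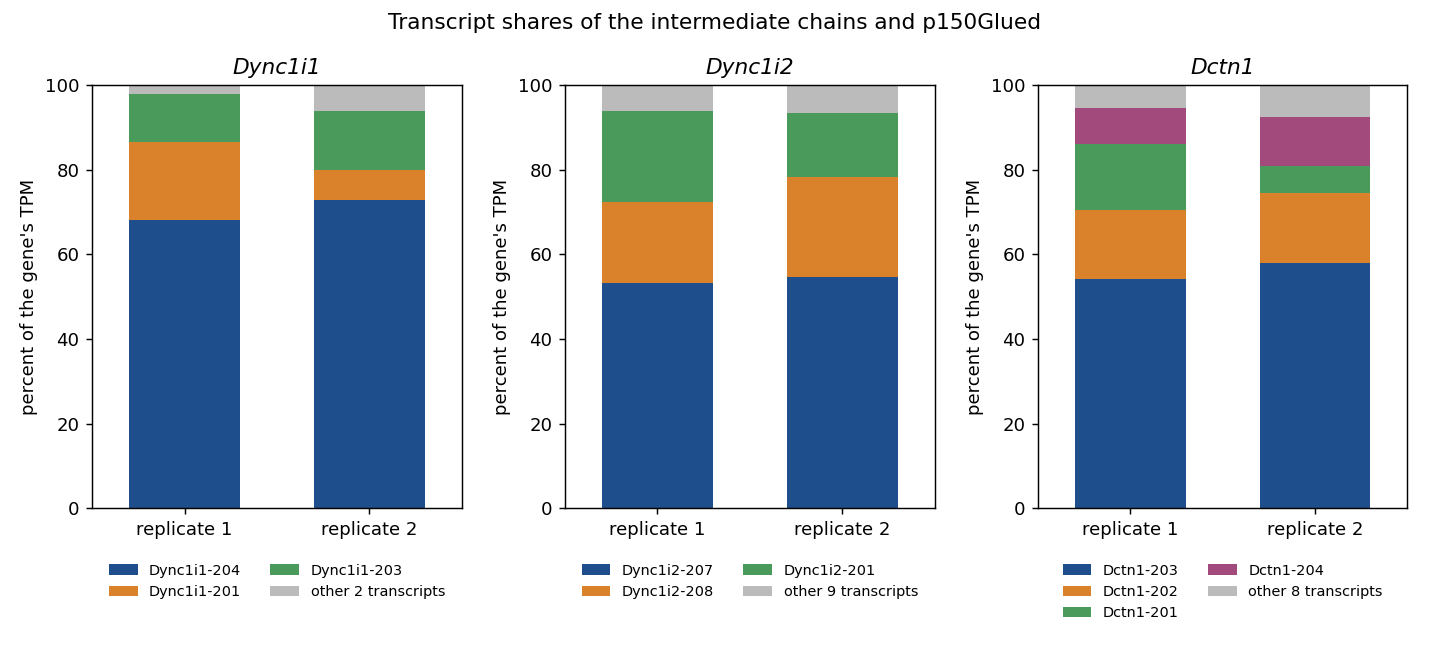
Percent of the TPM of Dync1i1, Dync1i2 and Dctn1 in each transcript with at least 10% in either library, with the rest in grey, for replicate 1 and replicate 2. The most abundant transcript is the same in both libraries for each gene, and the forms without the 60-base exon or run of exons, Dync1i1-201, Dync1i2-201 and Dctn1-201, take more of the bar in replicate 1.

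The light intermediate chains are the subunits that hold the adaptors, and each gene has 1 annotated transcript in the tables. Dync1li1 (chr9:114688790-114724302, plus strand) had 100.98 TPM in replicate 1 and 113.51 TPM in replicate 2. Dync1li2 (chr8:104417680-104443047, minus strand) had 56.17 and 61.96 TPM. Dync1li1 was 1.82 ± 0.0242 times as high as Dync1li2 (SD, n = 2), with no overlap between the genes. The expected counts of the pair were nearly equal, at a ratio of 0.992 in replicate 1 and 1.01 in replicate 2, since the transcript of Dync1li1 has 2601 bases and that of Dync1li2 has 4633.

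Set against the heavy chain, the summed intermediate chains stood at 2.60 and 2.86 times the gene TPM of Dync1h1, and the summed light intermediate chains at 2.66 and 2.93 times. Against the full-length heavy chain transcript alone the same sums stood at 9.47 and 9.78 times, and at 9.96 and 10.3 times. The excess of these subunit RNAs over the heavy chain RNA held on both scales, with a size that depended on the retained-intron transcripts of Dync1h1.

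Dctn1 encodes p150Glued, the dynactin subunit that binds microtubules and the dynein intermediate chain. The gene (chr6:83165920-83200117, plus strand) had 122.57 TPM in replicate 1 and 124.79 TPM in replicate 2, and 12 transcripts are annotated. Dctn1-203, of 1264 codons, contains all the short exons shown above and held 54.2% of TPM in replicate 1 and 57.9% in replicate 2. Dctn1-201, of 1239 codons, lacks the 60-base run of 3 exons and the 15-base exon, and held 15.6% in replicate 1 and 6.38% in replicate 2. Its deposited intervals, 14.3 to 22.3 TPM and 5.62 to 10.7 TPM, did not overlap. Dctn1-204 held 8.57% and 11.5%, and the other 8 transcripts held 5.48% and 7.65% together.

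The leading exons of the 60-base run, of 21 and 18 bases, were included in 80.1% of the spanning full-length coding TPM in replicate 1 and 91.6% in replicate 2. These values leave out Dctn1-202, whose first exon holds the 18 bases with no exon before them. The second 21-base exon, which all 5 full-length coding transcripts span, was included in 83.6% and 93.1%, and the 18 bases were present in the same shares once Dctn1-202 is counted. In human tissue, p150Glued with these exons is known to bind microtubules more strongly and to be prominent in neurons. The 15-base exon was included in 57.3% and 62.8%. Dctn1-204 lacks it together with the last 56 bases of the exon before it and the first 43 bases of the exon after it, and those exon ends were included in 90.9% and 87.5%.

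Dctn1-202 begins inside the gene, at chr6:83185946, and its reading frame opens after the exons that encode the CAP-Gly domain, as in the p135 form known from human brain. It has 1142 codons against 1264 in Dctn1-203, and held 16.2% of TPM in replicate 1 and 16.6% in replicate 2, the closest agreement among the named Dctn1 transcripts. As a share of full-length coding TPM by first exon, the internal start gave 17.2% and 17.9%. Transcripts whose first exon ends at 83165994 gave 73.8% and 69.4%, and those whose first exon ends at 83179905 gave 9.06% and 12.7%. The codons that only the internal start uses, at chr6:83186416-83186427, are shown in capitals, followed by the 18-base exon of the run above.
Dctn1 internal start codons: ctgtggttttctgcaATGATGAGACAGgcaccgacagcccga
The 250 bases upstream of the internal start, chr6:83185696-83185945 on the plus strand (RefSeq, GRCm38.p6), are 52.0% G or C. The median over the same 250 bases of 32851 promoters in the table is 52.4%, and 49.7% of them are at or below the Dctn1 value.
Dctn1 upstream of the internal start: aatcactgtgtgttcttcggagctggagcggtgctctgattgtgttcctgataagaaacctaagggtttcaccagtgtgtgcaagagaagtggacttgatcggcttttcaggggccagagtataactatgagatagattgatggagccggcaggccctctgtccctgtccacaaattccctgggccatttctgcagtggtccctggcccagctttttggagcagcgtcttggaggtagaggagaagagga

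**Figure D4:**
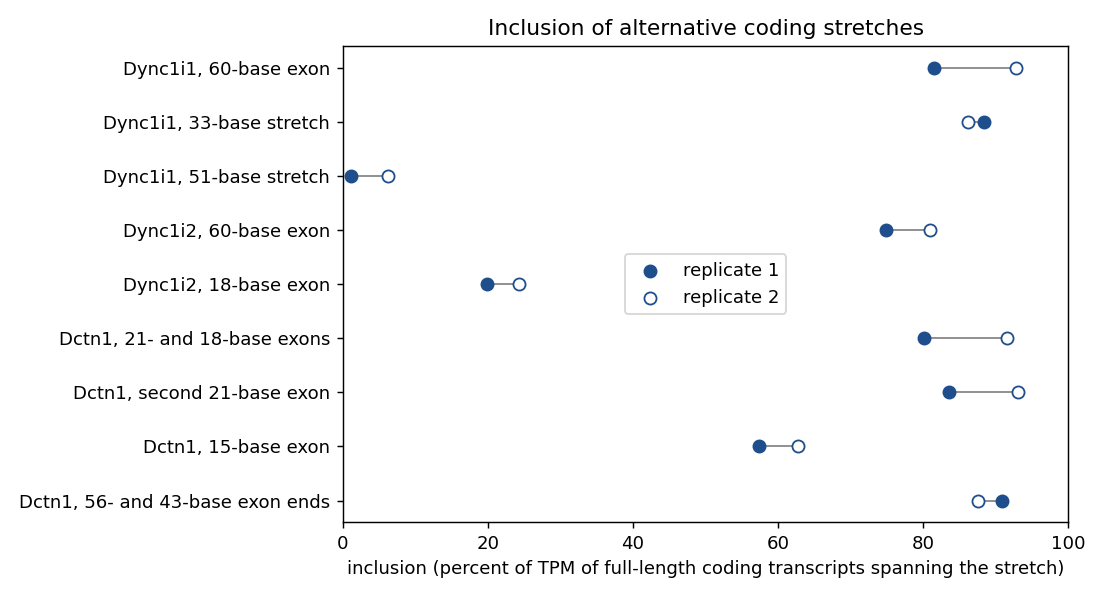
Inclusion of each alternative coding stretch of Dync1i1, Dync1i2 and Dctn1, as percent of the TPM of the full-length coding transcripts that span it, in replicate 1 (filled) and replicate 2 (open). The 60-base exons of both intermediate chains and the 21- and 18-base exons of Dctn1 lie at or above 74.9% in both libraries and are farther right in replicate 2, while the 18-base exon of Dync1i2 lies at 19.9% and 24.3%.

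These exons were less included in replicate 1 than in replicate 2, beside a lower summed level of neuronal markers and higher thymocyte, epithelial and cell cycle markers in that library, as given above. For the 60-base exon of Dync1i1 the gap was 81.5% against 92.8%, for that of Dync1i2 74.9% against 80.9%, and for the leading small exons of Dctn1 80.1% against 91.6%. The 33-base stretch of Dync1i1, at 88.4% against 86.2%, and the 56- and 43-base exon ends of Dctn1, at 90.9% against 87.5%, went the other way. Among the forms without the 60-base exon or run, the deposited intervals of the libraries overlapped for Dync1i1-201 and Dync1i2-201 but not for Dctn1-201. With 1 library at each level, the pool, its other tissue and its library cannot be told apart.

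Dctn2 encodes p50 dynamitin, which links the shoulder of dynactin to its filament and disrupts the complex when in excess. The gene (chr10:127266368-127281950, plus strand) has 1 annotated transcript and had 223.24 TPM in replicate 1 and 243.92 TPM in replicate 2. It was 1.89 ± 0.0943 times as high as Dctn1 in gene TPM (SD, n = 2), with no overlap, and 2.02 ± 0.131 times on full-length coding transcripts. In expected counts, which are not divided by length, the ratio was 0.852 and 0.929. Dctn1 in turn stood at 2.07 and 2.08 times the gene TPM of Dync1h1, and at 7.35 and 6.77 times the full-length heavy chain transcript.

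The Bicaudal D proteins are adaptors for vesicles marked by Rab6 and, at the G2 phase, for the nuclear envelope. Bicd1 (chr6:149408886-149563329, plus strand) had 31.86 TPM in replicate 1 and 38.13 TPM in replicate 2. Bicd2 (chr13:49341585-49387026, plus strand) had 24.40 and 22.74 TPM. Bicd2 stood at 0.766 times the level of Bicd1 in replicate 1 and 0.596 times in replicate 2. The genes did not overlap, but the gap narrowed on full-length coding transcripts, where the ratio was 0.941 and 0.794, and the ratio of expected counts was 1.04 and 0.906. Bicd1-203 was the main transcript of its gene, with 60.7% and 59.0% of TPM, and Bicd2-201 that of its gene, with 64.5% in replicate 1 and 85.1% in replicate 2. The deposited intervals of Bicd2-201, 14.37 to 16.4 TPM in replicate 1 and 17.95 to 19.85 TPM in replicate 2, did not overlap. Bicd2-203 was listed at 17.0% in replicate 1 and 0% in replicate 2, and its deposited intervals of 0.779 to 6.86 TPM and 6.58e-05 to 2.81 TPM overlapped.

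Ndel1 (chr11:68821434-68871858, minus strand) had 90.91 TPM in replicate 1 and 94.64 TPM in replicate 2, with 86.4% and 88.2% in Ndel1-201. Its paralog Nde1, which is known for its role in progenitor divisions of the mouse cortex, had 30.20 TPM in replicate 1 and 15.16 TPM in replicate 2. Ndel1 was thus 3.01 times as high as Nde1 in replicate 1 and 6.24 times in replicate 2, higher in 2 of 2 libraries by amounts that differed widely. Cell cycle markers were also higher in replicate 1, at 378 TPM against 177 TPM, and their part in the level of Nde1 was not tested. Pafah1b1, the Lis1 gene, had 44.27 and 43.83 TPM, which was 0.475 ± 0.0169 times the level of Ndel1 (SD, n = 2) and 0.326 times on full-length coding transcripts.

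None of the 10 genes had an absolute log2((TPM + 1) ratio) of replicate 1 over replicate 2 of at least 1, against 7.43% of the 17222 genes at or above 1 TPM in either library. That background amounts to under 1 gene in 10, so the count says nothing particular about these genes. Their log2 ratios ran from -0.25 for Bicd1 to 0.10 for Bicd2, with a median of -0.11, and the median of the 17222 genes was 0.02. In TPM, 9 of the 10 were lower in replicate 1 and Bicd2 was higher, whereas all 10 were lower with TMM or DESeq2 scaling and 5 were lower and 5 higher when TPM was scaled to the spike-ins. Spike-in scaling moved the median of all genes to 0.13, and that of the 10 genes to 0.01. A 95% exact binomial interval was computed from the expected counts of each gene and covers counting error only. Its half-width ran from 0.037 for Dctn1 to 0.086 for Dync1i1. On the TPM scale 7 of the 10 ratios exceeded their half-width: those of Dync1i1, Dync1i2, Dync1li1, Dync1li2, Dctn2 and Bicd1, lower in replicate 1, and that of Bicd2, higher. The ratios of Dync1h1, Dctn1 and Ndel1 did not. Because the half-widths come from counts and not from TPM, that comparison is approximate, and the genes that pass depend on the scale. With TMM or DESeq2 scaling of the counts, Dync1h1 at -0.136 and Ndel1 at -0.11 exceeded their half-widths of 0.052 and 0.058. Bicd2, at -0.02 against 0.07, did not.

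The other genes of the motor were described from lists of 43 genes, of which 42 were detected, against 35.8% of the 43346 annotated genes. All 9 dynein 1 light chains were. Dynlt1c, at 84.5 TPM in replicate 1 and 87.6 TPM in replicate 2, had only 0 and 0.18 TPM on full-length coding transcripts. Dynll1, which encodes the LC8 light chain shared with many other complexes, had 1049 TPM in replicate 1 and 1083 TPM in replicate 2, above every one of the 10 genes here. On full-length coding transcripts it had 400 and 407 TPM, below Dynlt1b and Dynlrb1. Dynlt1b had 784 and 887 TPM, and the roadblock light chain Dynlrb1 had 554 and 626 TPM, with 518 and 597 TPM in full-length coding transcripts. Dynlt1b, Dynlt1a, Dynlt1f and Dynlt1c are near-identical copies among which the counting may have split reads, so their separate levels are uncertain. The lowest were Dynll2 at 47.3 and 62.3 TPM, Dynlt3 at 47.5 and 42.5 TPM, and Dynlrb2 at 4.77 and 5.80 TPM.

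All 10 other dynactin subunits were detected, with a median of 165 TPM in replicate 1 and 166 TPM in replicate 2. The highest were the capping protein gene Capzb at 294 and 263 TPM, Dctn3, the p24 of the shoulder, at 223 and 262 TPM, and Actr1a, which encodes the Arp1 that builds the dynactin filament, at 230 and 255 TPM. The lowest were Actr1b at 99.8 and 99.9 TPM, Actr10 at 88.8 and 98.6 TPM, and Dctn4 at 51.4 and 55.9 TPM.

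Of 19 other adaptors and regulators, 18 were detected. The highest were Nudc at 239 and 223 TPM, the Golgi GTPase gene Rab6a at 210 and 238 TPM, and Hap1, which encodes a huntingtin-associated protein of axonal transport, at 191 and 216 TPM. The lowest were Ninl at 3.06 and 2.35 TPM, Rilp at 2.32 and 2.54 TPM, and Bicdl2, which was under 1 TPM at 0.62 in replicate 1 and 0.02 in replicate 2. Spdl1, a kinetochore adaptor, was the gene of the list past the library difference of 1, at 5.74 TPM in replicate 1 and 1.86 TPM in replicate 2. It is named after its values were seen. That 1 gene of 19 is near the background, since 7.43% of the 17222 genes at or above 1 TPM in either library were past this difference. The log2 ratio of Spdl1 was 1.24, that of Nde1 was 0.95, and the median log2 ratio of the cell cycle markers was 1.28.

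Dynein 2 is the separate motor of transport inside cilia, and all 5 of its genes were detected. Wdr34 had 51.8 and 59.7 TPM, Tctex1d2 32.5 and 33.99 TPM, Dync2li1 27.5 and 25.1 TPM, the heavy chain Dync2h1 12.7 and 12.9 TPM, and Wdr60 7.11 and 7.24 TPM. The heavy chain of dynein 1 was 4.65 times as high as that of dynein 2 in each library in gene TPM. On full-length coding transcripts, with 15.77 and 17.06 TPM for Dync1h1 against 10.7 and 10.8 TPM for Dync2h1, the ratio was 1.52 ± 0.0797 (SD, n = 2).

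**Figure D5:**
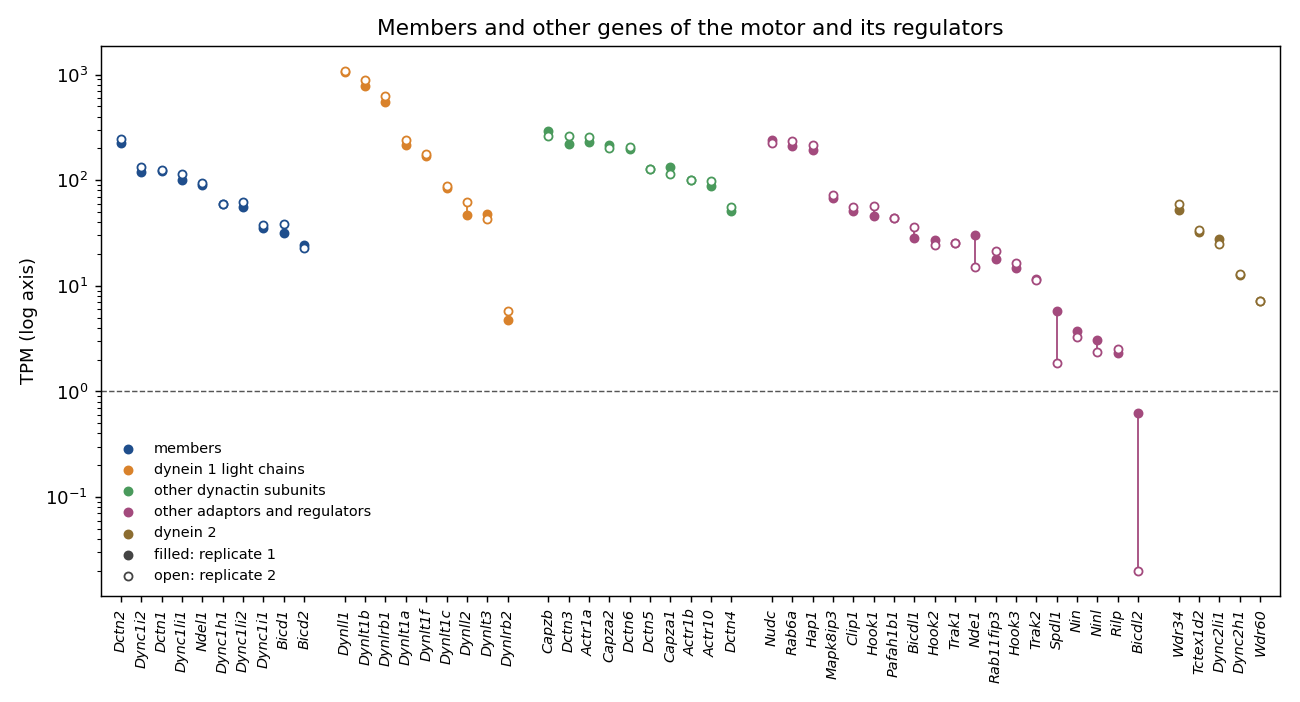
TPM (log axis) of the 10 genes (left) and of the light chains, other dynactin subunits, other adaptors and regulators, and dynein 2 genes, in replicate 1 (filled) and replicate 2 (open), with a dashed line at 1 TPM. Bicdl2 is under the line in both libraries, and Spdl1, Nde1 and Bicdl2 show the widest gaps between the libraries.

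Antisense or opposite-strand genes overlap 5 of the 10 genes. They are Gm17111 and Gm35558 at Dync1h1, 1700019G24Rik at Dync1i1, Gm45731 and K230015D01Rik at Dync1li2, Gm15624 at Dctn1 and Gm15785 at Bicd1. None of the sources used here says whether the counting used strand, so reads of these partners could not be told apart from those of the gene.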

How the data were processed

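Total RNA from the E15.5 neural tube was sequenced in 2 libraries from separate pools. The authors deposited a gene and a transcript table per library on mm10, annotated with GENCODE M4, per the notes deposited with each sample. Per the file headers, these hold an expected count, TPM and FPKM (FPKM was not used), and transcripts also have a percent of the TPM of their gene. Interval bounds for TPM, a score of unstated level per the file headers, are printed for a few transcripts. These bounds need not contain the TPM listed beside them. Dctn2-201 in replicate 1, for instance, was listed at 223.24 TPM with bounds of 213.1 to 222.0 TPM. The deposited TPM is scaled over all entries, with 5.00% of it in spike-ins in replicate 1 and 5.42% in replicate 2. Aligner, quantifier and strandedness: not given in the sources used here.

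Symbols, exons and transcript sequences came from GENCODE M21 (GRCm38), which matched 42462 of 43346 genes, and all 57 transcripts of the 10 genes, 51 of them with the same length. Genes at or above 1 TPM in both libraries were called detected. Differences between libraries are log2 ratios with a pseudocount of 1 TPM. Inclusion of a stretch was the share of TPM that contains it, among full-length coding transcripts with exons on both sides of it. A full-length coding transcript is one annotated with both ends of its reading frame. Expected counts were rounded for TMM (edgeR 4.0.16) and size factors (DESeq2 1.42.0) in R 4.3.3. The rest ran in Python 3.11.15, and steps were tested on simulated data. Intervals from counts cover counting error only.

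The genes and lists were chosen with earlier results of these data known. Named by rule were the 10 genes, the 3 highest and 3 lowest of each list, transcripts with at least 10% of the TPM of Dync1i1, Dync1i2 or Dctn1, and the top transcript of the others. Other genes and transcripts named were chosen after their values were seen.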

Additional observations from a re-analysis of the deposited data

How the results depend on the processing

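Leaving out 1 of 2 libraries cannot move a mean beyond 1 SD, so those values are left out of the counts here. Of 30 other alternative values of the 10 ratios between genes, given here as log2 ratios, 13 stayed within 1 SD of the libraries, 16 moved further and 1 changed sign. With CPM from expected counts, which are not divided by length, Dctn2 over Dctn1 was -0.17 where the TPM gave 0.92. CPM also gave 0.00 for Dync1li1 over Dync1li2, -0.04 for Bicd2 over Bicd1, -0.10 for Pafah1b1 over Ndel1, 0.68 for the intermediate chains and 1.10 for the light intermediate chains over Dync1h1, 0.93 for Dctn1 over Dync1h1, and 1.95 for Dync1h1 over Dync2h1. With full-length protein-coding transcripts only, chosen after seeing the data, the ratios were -0.21 for Bicd2 over Bicd1, 1.01 for Dctn2 over Dctn1, -1.62 for Pafah1b1 over Ndel1, 3.27 and 3.34 for the intermediate and the light intermediate chains over Dync1h1, 2.82 for Dctn1 over Dync1h1, and 0.61 for Dync1h1 over Dync2h1. Posterior mean TPM gave 1.03 for Dctn1 over Dync1h1 and 2.24 for Dync1h1 over Dync2h1. Leaving out each replicate moved Ndel1 over Nde1 most, between 1.59 without replicate 2 and 2.64 without replicate 1.

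Of 40 alternative transcript shares, 34 stayed within 1 SD, as did all 22 inclusions of the 11 stretches recomputed from posterior mean TPM and expected counts. That SD is wide for some, such as the 51-base stretch of Dync1i1, at 1.15% without replicate 2 and 6.26% without replicate 1. No gene of the 10 reached an absolute log2 ratio of 1 between the libraries under any scaling or pseudocount tried. Of the 17222 genes at or above 1 TPM in either library, between 970 (DESeq2 scaling) and 1879 (pseudocount of 0.1 TPM) did. With only 10 genes, the count therefore says nothing particular about them. At 5 TPM in place of 1 TPM, 14 of the 19 other adaptors and regulators and 8 of the 9 light chains were detected. No paired analysis was possible because the libraries form 1 group.

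With 2 pools of 1 group, an SD measures only the spread between these pools. The inclusion of exons of 15 to 60 bases rests on the model that shares reads between transcripts, and reads across their junctions were not analysed here.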
